A study of Mus musculus with 8 samples.

Results

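The genes described here encode the mitochondrial respiratory chain, the protein complexes of the inner mitochondrial membrane that carry electrons to oxygen and make ATP. The members were all non-control probes on the array whose gene name matched the naming series of complex I (*Nduf*), complex II (*Sdh*), complex III (*Uqcr*), complex IV (*Cox4* to *Cox8*), complex V (*Atp5*) or cytochrome c (*Cycs*). This rule used names and no measured value, and it found 81 genes, measured by 111 probes, among 27962 gene names and accessions and 41174 probes on the array. By complex these were 47 probes for 35 genes of complex I, 6 probes for 4 genes of complex II, 10 probes for 7 genes of complex III, 19 probes for 17 genes of complex IV, 24 probes for 16 genes of complex V and 3 probes for *Cycs*. The remaining 2 probes belong to *Cox4nb*, a neighbor of *Cox4i1* that is named for its position and encodes no chain subunit. *Ndufa4* was counted with complex I by its name, although its protein is now assigned to complex IV. Subunits encoded by mitochondrial DNA do not match these names and were not analysed here.

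The RNA came from the ipsilateral hemisphere of male C57BL/6J mice aged 8 to 12 weeks. The mice had either a sham operation or PMCAO, a permanent occlusion of the middle cerebral artery with an intraluminal filament, and were sampled at 6 h or 24 h. Immediately after the operation they received an intracerebroventricular injection of saline or of 1 pmol PACAP38, a neuropeptide studied as a neuroprotectant, in 1 µL. Each of the 8 groups (sham or PMCAO, saline or PACAP38, 6 h or 24 h) was a single pool of RNA from 3 mice, 300 ng from each, and PMCAO mice were taken by neurological grade. On every array a PACAP38 pool and the saline pool of the same surgery and time were hybridized together, PACAP38 in Cy5 on replicate 1 and in Cy3 on replicate 2. The 8 arrays are therefore 4 comparisons with the dyes exchanged. The sample labels mark the 2 arrays of a comparison as "Pooled 1" and "Pooled 2", but by the methods one RNA was labeled in both orientations. The 2 arrays were therefore taken as technical, and the spread between them was not read as a spread between mice. Arrays of 6 h lay on one slide and those of 24 h on another, so time and slide cannot be told apart. In a hemisphere, fewer cells of a type and less RNA per cell cannot be told apart either.

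Complex I (NADH dehydrogenase) and complex II (succinate dehydrogenase) pass electrons by way of ubiquinone to complex III, and cytochrome c carries them on to complex IV (cytochrome c oxidase). Complexes I, III and IV pump protons, and complex V (ATP synthase) uses the resulting gradient to make ATP. Neurons depend heavily on this supply, occlusion of an artery removes the oxygen that complex IV consumes, and cytochrome c released from injured mitochondria takes part in apoptosis. Nuclear genes of the chain share the transcription factors NRF1, GABP (an ETS factor, also called NRF2) and YY1.

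The motifs of these factors were looked for in the promoters of the members, because the genes are compared below as a group. RefSeq promoters of 300 bases (GRCm38.p6, 250 bases before to 50 after the start) were found for 66 of the 81 genes. On either strand, the NRF1 core GCGCATGC occurred in 11 member promoters (16.7%) and in 2.80% of all 27025 promoters. The ETS core CCGGAAG occurred in 15 (22.7%) and in 9.12% of all, and the YY1 core AAGATGGC in 9 (13.6%) and in 2.88% of all. An ETS match and a YY1 match can share the letters AAG, and the NRF1 core can match both strands at one place. At least 1 of them was present in 30 member promoters (45.5%) and in 13.8% of all promoters. Member promoters had a median GC content of 57.8%, against 52.7% for all promoters. A match describes the letters and is not a measured binding site. The following 30-base windows, read on the strand of the gene, show one gene from each complex and *Cycs*, so that the shared letters can be seen, with the motif in capitals.
*Ndufa8* (complex I, NRF1), chr2:36049328-36049357, minus strand: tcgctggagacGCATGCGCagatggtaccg
*Sdhb* (complex II, NRF1), chr4:140961206-140961235, plus strand: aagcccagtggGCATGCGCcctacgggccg
*Uqcr*, now *Uqcr11* (complex III, NRF1), chr10:80406807-80406836, minus strand: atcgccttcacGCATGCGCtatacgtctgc
*Cycs* (cytochrome c, NRF1), chr6:50566611-50566640, minus strand: catgctagctcGCATGCGCgcgcacaaacc
*Cox6b1* (complex IV, ETS), chr7:30626124-30626153, minus strand: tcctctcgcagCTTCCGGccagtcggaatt
*Atp5f1*, now *Atp5pb* (complex V, YY1), chr3:105959248-105959277, minus strand: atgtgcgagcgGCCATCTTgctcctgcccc
In these 6 windows the capitals are the reverse complement of the core as spelled above.

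Signals were given as the log2 of the processed signal minus the 75th percentile of its channel, hereafter the level. A difference of PMCAO minus sham was taken between channels of the same dye, so each time has 4 such differences (2 replicates, 2 dyes). Of the 111 members, 103 were well above background in all 16 channels and none was saturated. The 4 members below background in every channel were *Cox8c*, a testis isoform, and 1 probe each of *Ndufs1*, *Ndufs4* and *Sdhc*. Another 4 were above background in some channels (*Cox4i2* in 5, *Cox5a* probe A_52_P121110 in 6, and *Atp5f1* probe A_52_P631514 and *Ndufb8* probe A_52_P252539 in 15). Chain genes have many processed copies in the genome, and a probe in coding sequence can bind transcripts of such copies. All 8 neuron markers and all 7 oligodendrocyte markers on the array were well above background in all 16 channels, as were 6 of the 7 astrocyte markers.

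One array stood apart. On replicate 2 of sham at 6 h, the scanner software marked 10.3% of probes as outliers, against 0.0340% to 2.82% on the other arrays, and these included 45 members. Its Cy3 levels correlated with those of the other arrays at 0.944 at best, whereas every other array reached at least 0.983 with another. The members scattered there with an SD of 1.03 around their median over the other arrays, against 0.146 to 0.380 elsewhere. With outlier spots removed, the median member level on it was 6.04 in Cy3 and 5.92 in Cy5, against 4.21 to 4.39 and 4.10 to 4.40 on the others. With the outlier spots kept it was 4.24 and 4.36. Medians over the members at 6 h that use this array are therefore given with and without it, and 24 h is described first.

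At 24 h after PMCAO, the levels of respiratory chain genes stayed close to those of sham. The median difference over the 111 members was -0.024, with the middle 50% of members spanning 0.199, whereas over all probes the median was 0.016 and the middle 50% spanned 0.344. The difference was below 0.25 in size for 99 members. With the thresholds of the study (above 1.5-fold or below 0.75-fold), 109 of 111 members passed neither. The one member above 1.5-fold was *Cox4i2*, which was dim, and 6.92% of all probes passed in that direction. The one member below 0.75-fold was a probe of *Atp5s*, and 9.4% of all probes passed there. Among probes well above background in all channels of 24 h, 0 of 105 members were above 1.5-fold and 1 was below 0.75-fold, against 4.99% and 7.72% of all such probes. The median was -0.035 for these 105 members and -0.027 for all such probes. By the same-dye differences, 40 members (36.0%) were below 0 in all 4 and 13 (11.7%) above 0 in all 4, while all probes had 22.1% and 25.0%. All probes include many dim ones, and these shares were not taken among probes well above background. The differences of a member had a median SD of 0.0722 over the 4 values, which is the error of labeling and hybridization together with the difference between the saline and PACAP38 pools.

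**Figure D1:**
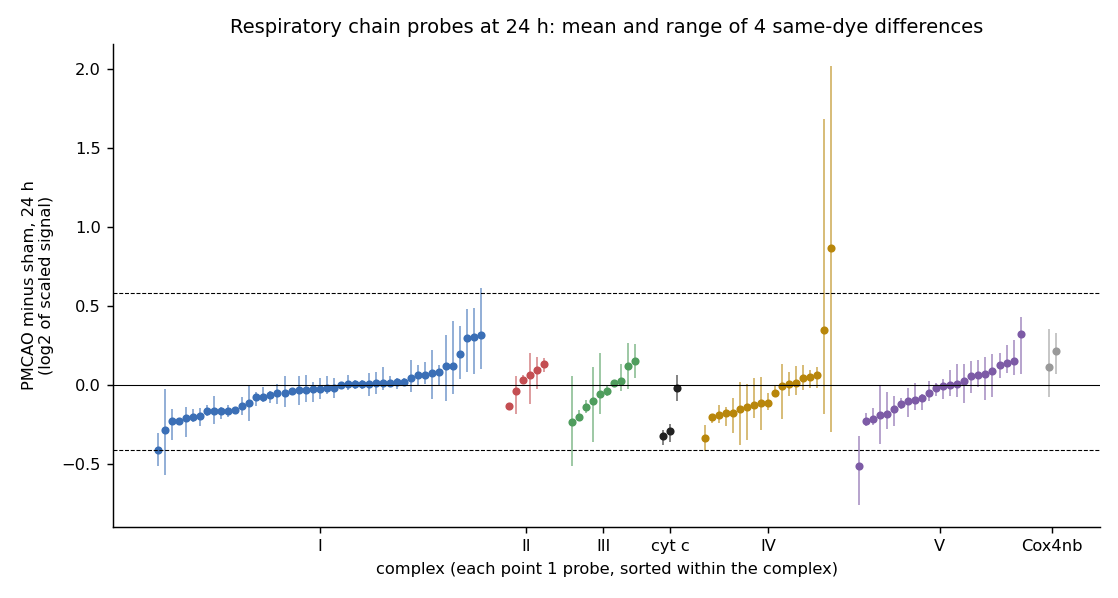
Difference of PMCAO minus sham at 24 h (vertical axis, log2 of the scaled signal) for the 111 probes, grouped by complex along the horizontal axis. Points are means of 4 same-dye differences, lines run from the lowest to the highest of the 4, and dashed lines mark 1.5-fold and 0.75-fold. All but 2 probes lie between the dashed lines, and the wide lines of complex IV belong to the dim probes of *Cox4i2* and *Cox5a*.

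In complex I the differences ran from -0.41 to 0.32 with a median of -0.024, and 18 of 47 probes were below sham in all 4 values and 5 above. The brightest probe was that of *Ndufa13*, an accessory subunit. Its levels were 6.22 in the saline sham pool, 6.27 in the PACAP38 sham pool, 6.20 in the saline PMCAO pool and 6.30 in the PACAP38 PMCAO pool. These 4 pools overlapped, with a difference of 0.01 ± 0.06 (SD of the 4 same-dye differences, n = 4). The core subunit *Ndufs3*, which belongs to the part of the complex that passes electrons to ubiquinone, was among the 5 highest members. It had levels of 3.53 and 3.52 in the saline and PACAP38 sham pools and of 3.80 and 3.86 in the PMCAO pools, a difference of 0.30 ± 0.20 that was 0.47 on replicate 1 and 0.13 on replicate 2. *Ndufb9*, an accessory subunit, had 5.50 and 5.70 in sham and 5.86 and 5.97 in PMCAO, a difference of 0.32 ± 0.26 that was 0.10 on replicate 1 and 0.53 on replicate 2. For both genes the PMCAO pools were higher than the sham pools, and neither reached 1.5-fold on this scale. After normexp, loess and Aquantile, another background correction and normalization, *Ndufb9* was at 0.77, above 1.5-fold. The low end of complex I was the dim *Ndufb8* probe A_52_P252539, with levels of -4.19 and -4.09 in sham and -4.52 and -4.59 in PMCAO and a difference of -0.41 ± 0.10. The bright probe of the same gene, A_51_P247873, had levels of 5.55 and 5.60 in sham and 5.56 and 5.63 in PMCAO, a difference of 0.02.

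*Ndufa12*, another accessory subunit of complex I, had 3 probes that did not move together. Probe A_51_P458538 was at -0.16 ± 0.01, probe A_51_P458540 at 0.19 ± 0.16 and probe A_52_P724940 at -0.03 at 24 h. The first pair share 40 of their 60 bases, shown here because they disagree in sign although they overlap. The first 30 bases of the shared part are (mm7)
*Ndufa12*, chr10:93758942-93758971, plus strand: tggaaataaatactacgaagacaacaagca
Over the 6 pairs of overlapping probes among the members, the 24 h differences of a pair were apart by a median of 0.0303, with *Ndufa12* the widest at 0.352. Over the 29 pairs of probes of one gene that do not overlap, they were apart by a median of 0.159 and up to 0.521. Differences of this size between members can thus also be seen between probes of one gene.

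Complex II, the succinate dehydrogenase that also serves the citric acid cycle, had a median difference of 0.048 at 24 h. *Sdhb*, the iron-sulfur subunit and the brightest of this complex, had levels of 4.15 and 4.20 in the saline and PACAP38 sham pools and 4.19 and 4.29 in the PMCAO pools, a difference of 0.07 ± 0.13. *Sdhd*, a membrane anchor, was at 0.03 ± 0.03 and the other anchor, *Sdhc*, at -0.04 ± 0.10. The catalytic subunit *Sdha* had 2 probes on opposite sides of sham, A_51_P410823 at -0.13 ± 0.02 and A_52_P109503 at 0.13 ± 0.05. Complex III had a median of -0.048 and a range of -0.24 to 0.15. Its brightest probe, of the hinge protein gene *Uqcrh*, had levels of 6.25 and 6.30 in sham and 6.37 and 6.42 in PMCAO, a difference of 0.12 ± 0.12. No probe of complex II or complex III passed either threshold at 24 h.

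Cytochrome c had the lowest median of the groups at 24 h, -0.293, from 3 probes of one gene. The letters are shown because the probes differed by their position. Probes A_52_P82247 and A_51_P261671 share 40 bases, and A_51_P163587 lies upstream of them on the strand of the gene (mm7, first 30 bases of the shared part and of the third probe).
*Cycs*, A_52_P82247 and A_51_P261671, chr6:50524603-50524632, minus strand: aattgtccttaaatacccactcagaaacac
*Cycs*, A_51_P163587, chr6:50525336-50525365, minus strand: aatgatcttcgctggaattaagaagaaggg
Probe A_52_P82247 had levels of 4.45 in the saline sham pool, 4.49 in the PACAP38 sham pool, 4.12 in the saline PMCAO pool and 4.18 in the PACAP38 PMCAO pool. Probe A_51_P261671 had 3.57 in both sham pools and 3.26 and 3.30 in the PMCAO pools. Both PMCAO pools were below both sham pools on these probes, with differences of -0.32 ± 0.05 and -0.29 ± 0.05. Probe A_51_P163587, the brightest of the 3, had 4.49 and 4.56 in sham and 4.47 and 4.54 in PMCAO, where the pools overlapped and the difference was -0.02 ± 0.07. The 2 probes that were lower overlap in sequence and are not separate evidence, and neither reached 0.75-fold.

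**Figure D2:**
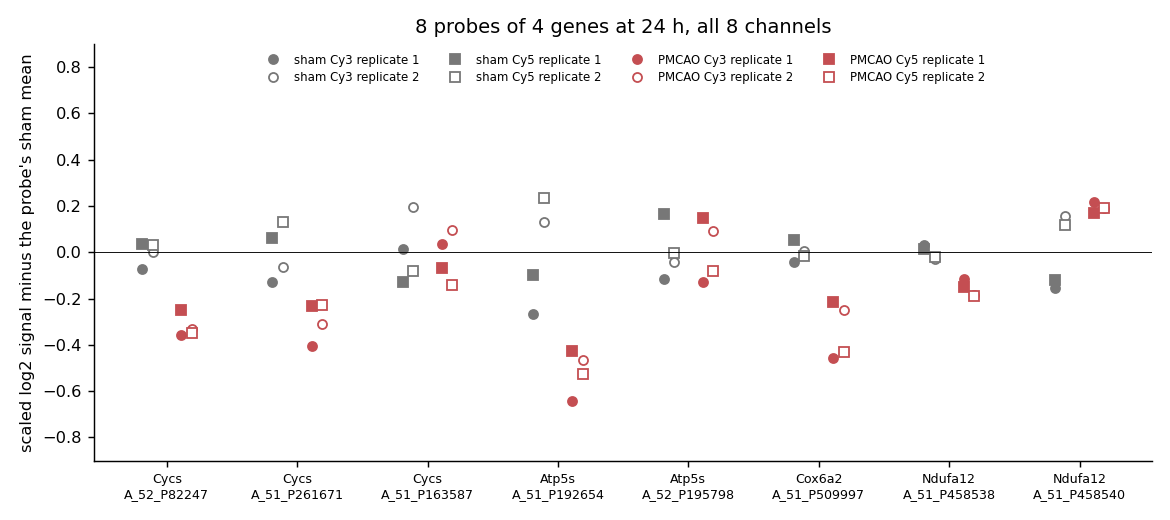
Levels at 24 h of 8 probes of *Cycs*, *Atp5s*, *Cox6a2* and *Ndufa12*, as the scaled log2 signal minus the mean of the 4 sham channels of the probe (vertical axis). Gray is sham and red PMCAO, circles are Cy3 and squares Cy5, and filled symbols are replicate 1. The PMCAO channels lie below the sham channels for 2 *Cycs* probes, 1 *Atp5s* probe, *Cox6a2* and 1 *Ndufa12* probe, and the other probes of *Cycs*, *Atp5s* and *Ndufa12* do not follow.

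Complex IV had a median difference of -0.114 at 24 h, with 7 of its 19 probes below sham in all 4 values and none above in all 4. Several of its subunits have isoforms for different tissues. Of the general isoforms, *Cox6a1*, the brightest of the complex, was at 0.06 ± 0.06 (6.96 and 7.03 in the sham pools, 7.01 and 7.10 in the PMCAO pools), *Cox6b1* at 0.00 ± 0.07, *Cox8a* at 0.05 ± 0.08 and *Cox4i1* at -0.11 ± 0.16. The general isoform *Cox7a2* was lower, with its 2 overlapping probes at -0.20 ± 0.03 and -0.18 ± 0.05. The heart and muscle isoform *Cox6a2* was the lowest of the complex. Its levels were 1.64 and 1.70 in the sham pools and 1.23 and 1.44 in the PMCAO pools, so that both PMCAO pools were lower, with a difference of -0.34 ± 0.09. The muscle isoforms *Cox7a1* and *Cox8b* were at -0.14 ± 0.17 and -0.18 ± 0.09, and the testis isoform *Cox6b2* at -0.19 ± 0.06. Among 11 markers of skeletal and heart muscle the median difference at 24 h was 0.22, with 2 below 0.75-fold, and among 7 markers of striatal neurons it was -0.55, with 5 below 0.75-fold. The part of these cells in the *Cox6a2* values was not tested. *Cox4i2*, an isoform linked to low oxygen, had differences of 1.54, 2.02, 0.20 and -0.30, and at 24 h it was well above background only in the Cy5 channel of replicate 2 of each surgery. Those 2 channels gave the value of -0.30, so no fold is given.

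In complex V the median difference at 24 h was -0.014. The brightest probe, of *Atp5g3*, which encodes the membrane ring subunit, had levels of 6.19 and 6.17 in the sham pools and 6.21 and 6.27 in the PMCAO pools, a difference of 0.06 ± 0.09. *Atp5s*, now *Dmac2l*, had the lowest value of all members. It encodes factor B, a coupling factor of the enzyme, and was counted with complex V by its older name. On probe A_51_P192654 its levels were 2.44 in the saline sham pool, 2.47 in the PACAP38 sham pool, 1.87 in the saline PMCAO pool and 2.01 in the PACAP38 PMCAO pool. The 4 differences were -0.38, -0.32, -0.60 and -0.76, so both PMCAO pools lay below both sham pools, with a mean of -0.51 ± 0.20 or 0.70-fold. After normexp, loess and Aquantile the value was -0.22, and the other probe of the gene, A_52_P195798, was at 0.01 ± 0.09. *Atp5f1*, a stalk subunit, had its dim probe A_52_P631514 at 0.32 ± 0.17, while its 2 bright probes were at -0.02 and -0.19. *Cox4nb*, the neighbor gene outside the chain, was at 0.22 ± 0.13 on probe A_51_P480499.

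Other mitochondrial gene lists also stayed near sham at 24 h. Chain-related genes with other names (electron transfer flavoproteins, cytochrome c1, the heme lyase and factors of ATP synthase) had a median of -0.07, with 0 of 10 past either threshold. The citric acid cycle had a median of -0.03, with 0 of 18 past, and regulators of mitochondrial biogenesis, among them *Nrf1*, *Gabpa* and *Yy1*, a median of -0.09, with 0 of 18 past. Of 17 assembly factors, with a median of -0.08, 1 was below 0.75-fold, *Cox10*, which was not above background in all channels. Of 75 mitochondrial ribosomal protein genes, with a median of -0.04, 1 was below, *Mrps25* at -0.43. Inner membrane carriers had a median of 0.07, and 2 of 14 were above 1.5-fold. These were *Ucp2*, an uncoupling protein also found in microglia and immune cells, at 1.54 with a range of 1.06 to 1.87 over the 4 differences, and *Slc25a13*, an aspartate and glutamate carrier, at 0.75 with a range of 0.68 to 0.86. Thus the 2 genes above 1.5-fold in these lists were carriers and not chain subunits.

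The pools themselves differed strongly in other genes at 24 h. Among 9 genes of the acute response to ischemia the median difference was 2.50 and 8 were above 1.5-fold, and among 5 neutrophil markers it was 4.26 and 4 were above. The summed level of the neutrophil markers was 0.902 and 0.954 on the sham arrays and 17.0 and 18.5 on the PMCAO arrays, in units of the 75th percentile of a channel, and the markers *Ngp* and *Camp* were not above background in all channels. For 8 neuron markers the median was -0.09, with 0 past either threshold, and the summed level was 157 and 158 on the sham arrays and 142 and 146 on the PMCAO arrays. For 7 oligodendrocyte markers the median was -0.12, for 7 astrocyte markers 0.05 with 2 above 1.5-fold, for 8 microglia and macrophage markers 0.01 with 1 above and 2 below, and for 6 endothelial markers 0.06 with 2 above and 2 below. The astrocyte markers above 1.5-fold were *Gfap* at 1.04 and *Aldh1l1* at 5.42, which ran from 0.055 to 10.99 over its 4 differences and was not above background in all channels. The part of changes in cell types in the differences of the members was not tested.

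**Figure D3:**
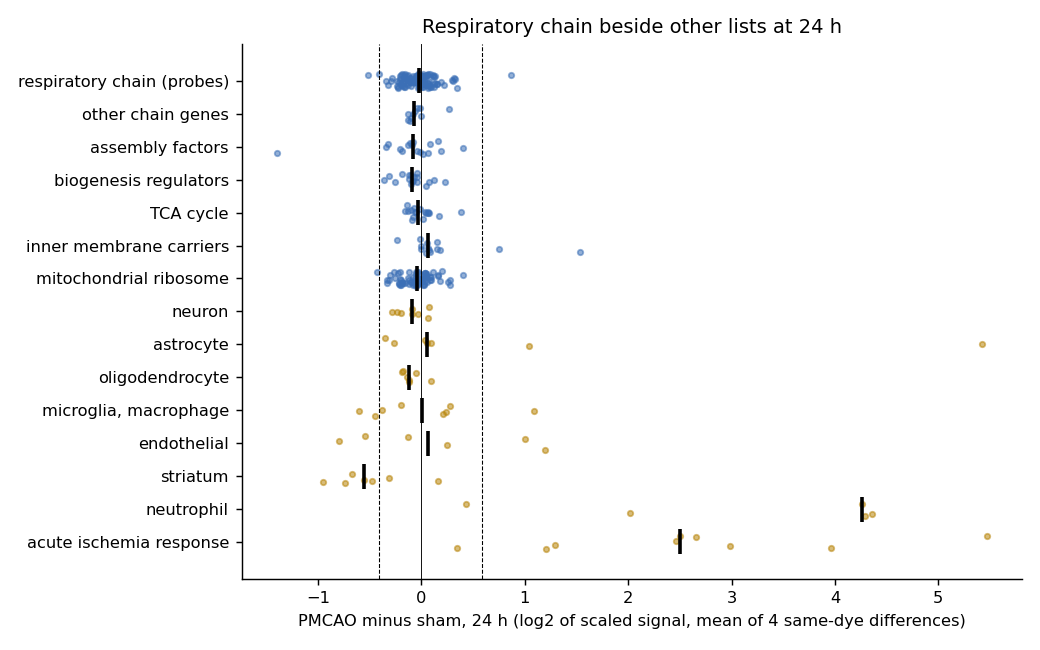
Difference of PMCAO minus sham at 24 h (horizontal axis, log2 of the scaled signal, mean of 4 same-dye differences) for the member probes, other mitochondrial lists (blue) and marker lists (ocher, one probe per gene). Vertical bars are medians and dashed lines mark 0.75-fold and 1.5-fold. The respiratory chain has a median of -0.024 and neutrophil markers one of 4.26.

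At 6 h the member differences depended on the replicate. On replicate 1, which does not use the array that stood apart, 93 members had a median of 0.135, and all probes had 0.098. Of these 93 members, 53 were above sham in both dyes and 15 below, and 13 were above 1.5-fold and 2 below 0.75-fold (15.9% and 10.2% of all probes). Among probes well above background in all channels of 6 h, 10 of 85 members were above 1.5-fold and 2 below 0.75-fold on replicate 1, against 8.45% and 11.8% of all such probes. The median on replicate 1 was 0.135 for these 85 members and -0.011 for all such probes. On replicate 2, 59 members had a median of -0.865 and all probes one of -0.342. The mean of all 4 differences could be taken for 52 members and had a median of -0.338, against -0.089 for all probes. By that mean 2 of 52 members were above 1.5-fold and 24 below 0.75-fold, against 17.2% and 31.6% of all probes. With outlier spots kept, it was 0.041 for 111 members and 0.23 for all probes. The sign of the 6 h median thus differed between the replicates and, for the mean of 4, with the treatment of outlier spots. Keeping outlier spots changed the 75th percentile of a channel as well as the set of members. By the mean of 4, the 2 *Cox4nb* probes had a median of -0.705 with outlier spots removed and -0.331 with them kept. On replicate 1 their medians were 0.037 and 0.070. The sizes on replicate 2 at 6 h, here and below, thus depend on this scaling.

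**Figure D4:**
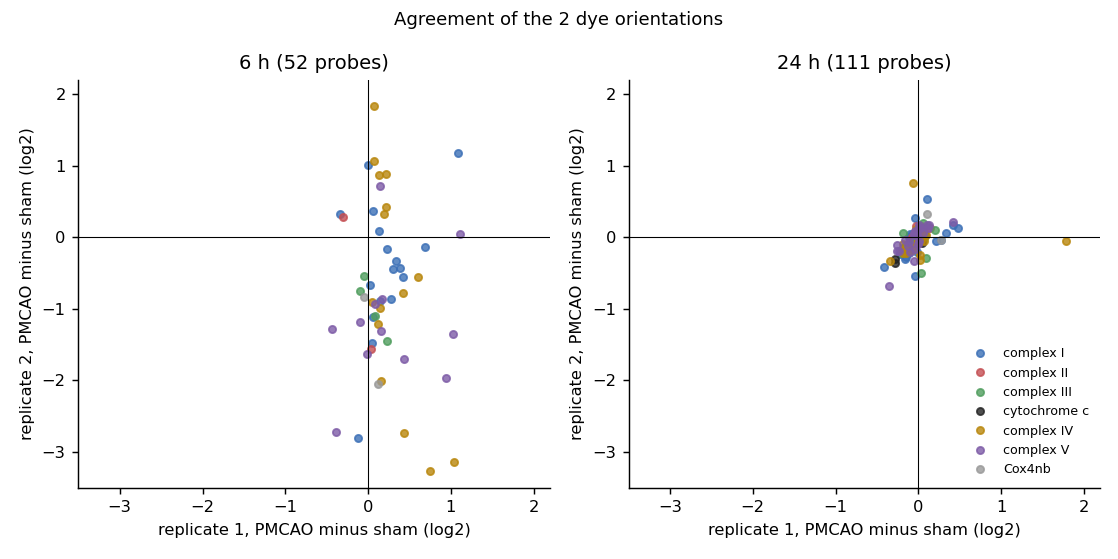
Difference of PMCAO minus sham on replicate 1 (horizontal axis) against replicate 2 (vertical axis), each the mean of the Cy3 and Cy5 differences in log2, at 6 h (52 probes) and 24 h (111 probes), with one color per complex. At 24 h most probes lie near 0 on both axes, and at 6 h replicate 2 spreads from -3.27 to 1.84 where replicate 1 runs from -0.44 to 1.11.

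By complex, replicate 1 at 6 h had medians of 0.140 for complex I, -0.214 for complex II, 0.233 for complex III, 0.239 for cytochrome c, 0.189 for complex IV and 0.072 for complex V. The 6 probes of complex II did not share a sign, with a median of 0.060 in Cy3 (4 of 6 above 0) and -0.345 in Cy5 (2 of 6 above 0). In this complex *Sdhd* had differences of -0.51 and -0.35 in Cy3 and Cy5, and *Sdhb* had 0.08 and -0.34. *Sdha* again had probes on both sides, A_51_P410823 at -0.28 and -0.38 and A_52_P109503 at 0.48 and 0.40. The *Cycs* probes were at 0.06 and 0.12 (A_52_P82247), 0.53 and 0.68 (A_51_P261671), and 0.15 and 0.32 (A_51_P163587), so the pair that shares 40 bases and was lower than sham at 24 h was not lower on replicate 1 at 6 h. *Cox6b1* was at 0.90 and 0.99 on replicate 1.

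The members highest by the mean of 4 differences at 6 h are given next. With outlier spots removed, only *Ndufa12* probe A_51_P458540 among them had a similar size on both replicates. It had 0.97 and 1.20 on replicate 1 and 1.23 and 1.13 on replicate 2. Its pool levels, which keep outlier spots, were -0.21 and -0.36 in sham and 1.23 in both PMCAO pools, which did not overlap. On that scale the mean of its 4 differences was 1.51, against 1.13 with outlier spots removed. The mean of replicate 1 was 1.12 there, so replicate 2 was higher than replicate 1 and the sizes were not alike. Its sham pools include the array that stood apart. At 24 h its sham pools were at 0.95 and 0.99 and its PMCAO pools at 1.18 and 1.15. Time and slide cannot be told apart, so levels of the 2 times are not compared. *Cox4i1* had 0.18 and 0.25 on replicate 1 and 0.90 and 0.87 on replicate 2, *Cox6b2* had 0.18, -0.03, 1.02 and 1.11, *Ndufa11* probe A_52_P13436 had 0.07, -0.08, 0.93 and 1.09, and *Cox7a1* had 0.18, 0.08, 0.77 and 0.98 in the same order. These 4 were close to sham on replicate 1 and higher on replicate 2.

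The lowest by that mean were *Atp5s* probe A_51_P192654, with -0.33 and -0.44 on replicate 1 and -2.59 and -2.85 on replicate 2, and *Ndufa8*, with -0.21, -0.04, -2.76 and -2.84. *Cox7c* had 0.73 and 1.35 on replicate 1 and -2.96 and -3.33 on replicate 2, *Cox7a2* probe A_52_P37894 had 0.02, 0.84, -2.74 and -2.74, and *Cox4nb* probe A_51_P480499 had 0.05, 0.19, -2.11 and -2.00. For *Cox7c*, *Cox4nb* and *Cox7a2* the replicates gave opposite signs in both dyes, although the value of 0.02 for *Cox7a2* was near 0. *Atp5s* was below sham in all 4 differences at 6 h, as it was at 24 h. Its 6 h mean of 4 was -1.55 with outlier spots removed and -1.18 with them kept. The probes of *Atp5f1* were apart by over 1 at 6 h, with A_52_P631514 at 1.15, 1.08, -0.15 and 0.23 and A_52_P106929 at 0.15, -0.17, -1.51 and -1.74.

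Over both times together, limma's moderated test of PMCAO over sham on the 8 pools, with the pair of arrays as a random block, could use 52 members and called none at an adjusted p of 0.05, and it called 0% of all 36121 probes. The lowest adjusted p was 0.353 among the members and 0.240 among all probes. At an unadjusted p under 0.05 there were 5 of 52 members and 4913 of 36121 probes. Of these members, *Cox4i2*, which was dim, and *Ndufa12* were higher in PMCAO, and *Atp5s*, *Cox7a2* and *Ndufa8* were lower. The 6 h values given above for these lower genes were far lower on replicate 2, which uses the array that stood apart, than on replicate 1. On replicate 1, *Cox7a2* probe A_52_P37894 was not below sham. Without the 6 h arrays of replicate 2, 93 members were tested, again with 0 called and 0% of 40200 probes. There the lowest adjusted p of a member was 0.164 and 9 members had an unadjusted p under 0.05, 7 higher and 2 lower, as had 6562 of all probes. Without the random block, which treats pools that shared arrays as independent, 1 member and 528 probes were called. A p that misses the threshold does not show that levels were alike, and the values above give the sizes.

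PACAP38 over saline left the members near 0 in all 4 comparisons. At 6 h the median log2 ratio was -0.039 in sham (62 members) and -0.037 in PMCAO (84 members). Without the array that stood apart, on replicate 1 alone, it was -0.038 in sham at 6 h (105 members). At 24 h it was 0.035 in sham and 0.059 in PMCAO (111 members each), while the median over all probes was 0 in each comparison. In PMCAO at 24 h this gap was narrower among probes that each array measured well above background in 1 channel or more, with 0.062 for members and 0.046 for all probes. In the deposited value table the members there had 0.063 and all probes 0.087. At 6 h, sham had 0 members above 1.5-fold and 1 below 0.75-fold (3.98% and 7.48% of all probes), and PMCAO had 1 above and 0 below (5.41% and 6.9%). At 24 h, sham had 0 above and 2 below (1.75% and 3.87%), and PMCAO had 0 in either direction (2.99% and 8.18%). No member passed on both arrays of any comparison. Of all probes, those above 1.5-fold on both arrays made up 0.79% (sham) and 1.14% (PMCAO) at 6 h and 0.226% (sham) and 0.823% (PMCAO) at 24 h. Those below 0.75-fold on both made up 1.04% and 1.63% at 6 h and 0.892% and 3.75% at 24 h.

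The members that passed on the mean of 2 arrays were dim probes. In sham at 6 h it was *Sdhc* probe A_52_P875481, with 0.00 on replicate 1 and -1.51 on replicate 2, which was below background in all channels. *Cox5a* probe A_52_P121110 had 1.67 and 0.13 in PMCAO at 6 h and 0.31 and -1.65 in sham at 24 h. *Cox4i2* had 0.00 and -0.95 in sham at 24 h. In each case a single array gave the value. The bright probe of *Cox5a*, a nuclear-encoded subunit of complex IV, passed in no comparison.

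In PMCAO at 24 h the middle 50% of members lay between 0.017 and 0.088, and 41 members (36.9%) were above 0 on both arrays and 6 below, against 24.9% and 17.6% of all probes. In sham at 24 h, 22 members (19.8%) were above 0 on both arrays and 5 (4.50%) below, against 10.7% and 11.3% of all probes. The 6 h comparisons leaned the other way, with 12 members above and 21 below in sham (19.4% and 33.9% of 62, all probes 17.6% and 17.2%) and 8 above and 25 below in PMCAO (9.52% and 29.8% of 84, all probes 20.5% and 21.1%). Probes with a ratio of exactly 0 can share no sign and lower the shares of all probes. On replicate 1 of sham at 24 h, 17448 of 41166 probes were above 0 and 16687 below, against 68 and 39 of 111 members. Shares among probes well above background were not taken. In PMCAO at 24 h, the highest and lowest values were 0.400 (*Cox5a* probe A_52_P121110, dim) and -0.28 (*Cox7a1*, with -0.32 and -0.24 on the 2 arrays). The medians by complex were 0.065 for complex I, 0.033 for complex II, 0.043 for complex III, 0.077 for cytochrome c, 0.052 for complex IV and 0.052 for complex V. *Cox6a2* had 0.25 and 0.20, and the *Atp5s* probe that was lower in PMCAO had 0.22 and 0.08. The *Cycs* probes had 0.12 and 0.04, 0.18 and -0.06, and -0.10 and 0.26 (A_52_P82247, A_51_P261671 and A_51_P163587). Other mitochondrial lists had medians of similar size there, 0.07 for the citric acid cycle, 0.07 for mitochondrial ribosomal proteins and 0.09 for assembly factors. In the same comparison the acute response genes had a median of -1.24, neutrophil markers one of -2.91 and striatal markers one of 0.51. The part of these differences between the pools in the member values was not tested.

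**Figure D5:**
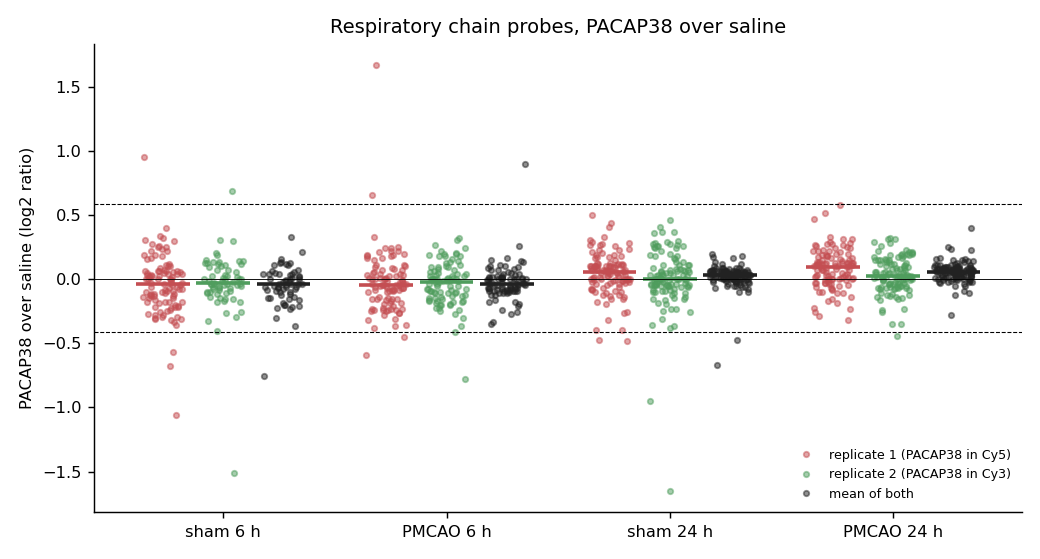
Log2 ratio of PACAP38 over saline (vertical axis) of the member probes in the 4 comparisons, for replicate 1 (red), replicate 2 (green) and their mean (black), with bars at the medians and dashed lines at 1.5-fold and 0.75-fold. The single arrays spread more widely than their mean, and the medians of the mean lie between -0.039 and 0.059.

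The ratios of the members on the 2 arrays of a comparison correlated, across probes that are not independent replicates, at -0.313 (sham) and -0.121 (PMCAO) for 6 h and at -0.616 (sham) and -0.461 (PMCAO) for 24 h. Over all probes the values were -0.148 (sham) and -0.140 (PMCAO) for 6 h and -0.417 (sham) and 0.053 (PMCAO) for 24 h. The sham values of 6 h use the array that stood apart. A negative value means that a probe above 0 with PACAP38 in Cy5 tended to be below 0 with PACAP38 in Cy3. The brightest member of complex IV, *Cox6a1*, is an example, with 0.50 and -0.37 in sham and 0.47 and -0.26 in PMCAO at 24 h. Over the 4 comparisons as 4 pairs of pools, limma's test of the mean PACAP38 effect called 0 of 52 members and 0% of 36121 probes. The lowest adjusted p of a member was 0.871, and 0 members and 1782 probes had an unadjusted p under 0.05. The test of whether the PACAP38 effect differed between PMCAO and sham also called 0 members and 0% of probes, with a lowest adjusted p of 0.784 among members. There, 0 members and 2108 probes had an unadjusted p under 0.05.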

How the data were processed

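Gene expression was measured on 8 two-color arrays with 60-base probes, 2 arrays for each of 4 pairs of pools. The files deposited by the authors are scanner output of Agilent Feature Extraction, for which the headers give version 9.5.1.1 on the 6 h arrays and 9.5.3.1 on the others (9.5.3.1 in the submitters' processing notes). The deposited log10 ratio is Cy5 over Cy3 after background subtraction with detrending and LOWESS dye normalization. The deposited intensity columns are the processed, mean and background signals, and further columns flag outliers and signal well above background. The deposited table of the series holds the processed ratio of Cy5 over Cy3, given as a score with a minus sign before it on arrays with PACAP38 in Cy3, and served as an alternative. For 3 arrays a second copy of the file held the same values. Depth in the sense of counts does not exist for arrays, and 2 arrays per comparison limit the precision.

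Control spots were left out and spots of one probe averaged. Outlier spots were left out of differences, ratios and tests. They were kept in the levels of pools, the correlations between arrays and the scatter of members on an array. Ratios were put on the log2 scale with PACAP38 as the numerator. Levels were log2 processed signals minus the 75th percentile of the channel. Tests used limma 3.58.1 in R 4.3.3 over all probes with Benjamini-Hochberg adjustment, and were run on simulated data with 200 probes changed 2-fold. There the test of PMCAO over sham recovered 73 of the 200 and made 18 false calls. Without the 6 h arrays of replicate 2 it recovered 64 and made 14 false calls. The test of the mean PACAP38 effect recovered 76 and made 5 false calls. Most simulated 2-fold changes were thus missed. Tables used Python 3.11.15, pandas 2.3.3 and numpy 2.4.6.

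The members and gene lists were chosen with earlier results of these data known. The genes named were the brightest of each complex, at each time the 5 highest and 5 lowest members among probes above background in all channels, members past the threshold under PACAP38, tissue isoforms of complex IV, *Cycs*, the *Sdh* genes, genes whose probes were apart by over 1, and at most 2 highest and lowest per pathway list. One item that this rule selects is not reported here. The remaining *Ndufa12* probes, *Ndufb8* probe A_51_P247873, *Atp5s* probe A_52_P195798 and the bright *Cox5a* probe were added for comparison. Alternatives were another scaling, background correction, value table, probe filter, threshold, dye, pool or replicate, and fits with other blocks.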

Additional observations from a re-analysis of the deposited data

Results flagged for a closer look

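The median log2 ratio of PACAP38 over saline over the members was below 0 in both comparisons of 6 h (-0.0393 in sham and -0.0369 in PMCAO) and above 0 in both of 24 h (0.0349 in sham and 0.0589 in PMCAO). This drew attention because the signs were opposite at the 2 times. In sham at 24 h the median was 0.052 on replicate 1 and 0 on replicate 2, so its sign there came from replicate 1. The difference was not tested, and time and slide cannot be told apart. *Cox6a2*, the heart and muscle isoform of complex IV, was higher in PMCAO than in sham in all 4 same-dye differences at 6 h (mean 0.26) and lower in all 4 at 24 h (mean -0.34). This difference between the times was not tested either, and the 6 h mean includes the sham array of replicate 2 that stood apart.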

How the results depend on the processing

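No test of the members at an adjusted p of 0.05 changed under the alternatives, except that 1 member was called for PMCAO over sham without the random block. With the replicate block, which pairs arrays by dye orientation and not by animals, 0 members were called for PMCAO over sham (41 of all probes), and 0 for the mean PACAP38 effect. The replicate number names the dye orientation of the same RNA, and the block changed no call of a member. With each pool left out in turn, 0 members were called in each fit. The fit without the 6 h arrays of replicate 2 and the medians with outlier spots kept and replicate 2 left out were chosen after seeing the data.

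The 24 h median of PMCAO minus sham, -0.024, was -0.082 when channels were scaled by their median, -0.039 in saline pools alone, -0.038 for the brightest probe of each gene, and -0.038 to -0.035 with a replicate left out. The 6 h median, -0.338, ran from -0.865 to 0.135 with a replicate left out, and was 0.079 after normexp, loess and Aquantile, 0.051 after quantile normalization, 0.041 with outlier spots kept and 0.162 without replicate 2 and with outlier spots kept. The counts past the threshold under PACAP38 (6 h: 1 in sham, 1 in PMCAO; 24 h: 2 in sham, 0 in PMCAO) were all 0 after normexp and loess, with the threshold required on both arrays, and for probes that each array measured well above background in 1 channel or more. For the brightest probe of each gene they were 0 at 6 h and 1 in sham at 24 h, and with 1.5-fold either way 1 in sham at 24 h. With a replicate left out they ran from 2 to 4 (sham) and 1 to 4 (PMCAO) at 6 h and from 2 to 2 and 0 to 1 at 24 h. At 24 h, *Ndufb8* probe A_52_P252539 moved from -0.41 to -0.17 and *Ndufb9* from 0.32 to 0.77, past 1.5-fold, after normexp, loess and Aquantile. The cause was not tested.

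Each pool is 1 sample of 3 mice, and the saline and PACAP38 pools of one surgery shared both arrays, so no test within a time was run. Dim probes hold only a bound on their level, and 8 members were not above background in all channels.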
